A study of Mus musculus with 31 samples.

Results

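The genes described here encode the protein part of the cytosolic ribosome. They were taken from the deposited count table as the protein-coding mouse genes whose symbol is Rpl or Rps followed by a number with at most 1 letter of a, l, x or y and 1 further digit, or is Rplp0, Rplp1, Rplp2 or Rpsa, without pseudogenes. This rule found 83 genes among the 54532 in the table, and it used no measured value. Of these, 31 encode proteins of the small (40S) subunit, 43 encode proteins of the large (60S) subunit, 3 encode the acidic stalk proteins of the large subunit, and 6 are paralogs of such genes (Rpl3l, Rpl7l1, Rpl10l, Rpl22l1, Rpl39l and Rps27l). Rpl10, Rps4x, Rpl36a and Rpl39 lie on the X chromosome and the other 79 on autosomes.

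RNA was sequenced from the hypothalamus of C57BL/6J mice, an inbred strain, at 4 months of age. The dams ate either a high-fat-high-sugar diet, called obesogenic (OB), or a control diet while pregnant and nursing. All offspring, those of control dams included, went onto chow at weaning (postnatal day 21) and from the age of 3 months were given the obesogenic diet themselves, for 4 weeks, so the comparison is of maternal diet in offspring that all met the same later diet. OB females gave 7 libraries, OB males 8, control females 8 and control males 8. Library totals were 23118626 to 38547288 read pairs, and the ribosomal protein genes held a median of 2.12% of them in OB females, 2.11% in OB males, 2.26% in control females and 2.26% in control males. Animals and litters are not named in the labels, and p-values therefore measure only the spread between these libraries.

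Each ribosome holds a single copy of nearly every one of these proteins, and a cell needs them in equal numbers. Their messenger RNAs are short, abundant and long-lived, and nearly all begin with a cytosine and a run of pyrimidines, the terminal oligopyrimidine (TOP) motif. Through this motif their translation is held back when the nutrient-sensing kinase mTOR is inactive, with LARP1 as the protein that binds the motif. In the hypothalamus mTOR is known as part of the sensing of nutrients and leptin. Mammalian genomes also carry very many retrotransposed copies of these genes, and reads that match a gene and its copy equally well cannot be assigned to either.

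The TOP motif is shown first because it is the sequence through which translation of this family is known to be controlled. RefSeq promoters (build GRCm38.p6) were matched by symbol for 63 of the 83 genes. A C followed by 4 letters, each of them C or T, on the strand of the gene, stood exactly at the annotated start in 13 of the 63 (20.6%), against 2.97% of 26962 other genes. It began within 3 bases of the start in 25 of the 63 (39.7%), against 13.4% of the other genes. Most of the 63 thus had no such match at the annotated start. A match is a description of the letters at an annotated start, and the start used in this tissue was not measured. The stretches below run from 20 bases before the start to 10 bases from it, with the pyrimidine run from the start in capitals. Rpl15 is at chr14:18270977-18271006 (minus strand), Rps18 at chr17:33955656-33955685 (minus), Rplp2 at chr7:141447631-141447660 (plus), Rps6 at chr4:86857358-86857387 (minus), Rps27 at chr3:90213639-90213668 (minus) and Rps10 at chr17:27635235-27635264 (minus).
Rpl15: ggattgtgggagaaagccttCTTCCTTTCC
Rps18: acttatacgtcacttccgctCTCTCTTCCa
Rplp2: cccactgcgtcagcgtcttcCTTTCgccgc
Rps6: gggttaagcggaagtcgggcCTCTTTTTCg
Rps27: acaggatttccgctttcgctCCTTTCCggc
Rps10: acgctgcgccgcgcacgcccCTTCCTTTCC

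The second set of sequences shows how closely some counted copies match their genes. Each is a stretch of coding sequence from the GENCODE M21 transcripts (GRCm38), with bases that differ between gene and copy in capitals and positions counted from 1 at the A of the start codon. Rpl23, which encodes a protein of the large subunit, and the counted pseudogene Gm9794 differ in 1 of 423 aligned bases, C253T. Rps10, which encodes a protein of the small subunit, and Rps10-ps2 differ in 5 of 496 aligned bases, namely T393C, T408C, C437G, A438G and G473A. Rps27, also of the small subunit, and its counted retrocopy Rps27rt are identical over 341 aligned bases, so the printed stretch has no capitals. The Rpl23 stretch covers coding bases 200 to 310 in exons 3 and 4 of 5 (chr11:97778295-97781360, minus), and Gm9794 has it at chr6:66875434-66875544 (minus). The Rps10 stretch covers coding bases 380 to 480 in exons 4 to 6 of 6 (chr17:27630483-27632299, minus), and Rps10-ps2 has it at chr16:20822161-20822261 (minus). The Rps27 stretch covers coding bases 150 to 250 in exons 3 and 4 of 4 (chr3:90212730-90213010, minus), and Rps27rt has it at chr9:114982458-114982558 (minus).
Rpl23: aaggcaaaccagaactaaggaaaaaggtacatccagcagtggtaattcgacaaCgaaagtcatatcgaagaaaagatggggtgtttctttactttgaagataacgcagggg
Gm9794: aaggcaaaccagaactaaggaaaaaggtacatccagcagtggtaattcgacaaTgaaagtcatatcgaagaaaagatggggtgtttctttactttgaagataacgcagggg
Rps10: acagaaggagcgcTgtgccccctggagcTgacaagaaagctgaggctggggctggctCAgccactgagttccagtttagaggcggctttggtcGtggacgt
Rps10-ps2: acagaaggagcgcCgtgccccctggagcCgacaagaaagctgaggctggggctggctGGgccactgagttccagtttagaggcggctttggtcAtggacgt
Rps27: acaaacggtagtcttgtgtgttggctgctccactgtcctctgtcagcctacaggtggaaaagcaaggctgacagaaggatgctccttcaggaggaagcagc
Rps27rt: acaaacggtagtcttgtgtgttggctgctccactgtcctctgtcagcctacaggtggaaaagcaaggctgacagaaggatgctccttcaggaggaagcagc

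Although the proteins are needed in equal numbers, the counted levels of their genes were far apart. Levels are counts scaled to the library total (CPM) with TMM factors, which correct for a few dominant genes, and between genes they are compared per kb of 1 representative transcript. Over all 31 libraries the 77 subunit genes had a median level of 324 CPM per kb, with the middle 50% between 219 and 491 CPM per kb. The 31 genes of the small subunit had a median of 399.8 CPM per kb and the 43 of the large subunit 285 CPM per kb. The most abundant were Rplp1, a stalk protein that helps to recruit elongation factors, at 1096 ± 288 CPM per kb (SD, n = 31), Rps29 at 1053 ± 299 CPM per kb and Rpl41 at 936 ± 342 CPM per kb. Rpl41 encodes the smallest ribosomal protein, and per kb of coding sequence its level was 6525 CPM. The representative transcripts of Rps20 and Rps15a are 3706 and 5130 bases long, and their levels of 45.5 and 51.7 CPM per kb of transcript were 469 and 675 CPM per kb of coding sequence.

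Rpl24, Rps10 and Rpl13a had the lowest levels of the subunit genes, at 1.04 ± 0.581, 1.59 ± 0.551 and 18.9 ± 6.20 CPM per kb (SD, n = 31). All 3 share exons on the same strand with a second annotated gene, and pairs that fit both genes were not counted for either. Gm28037 (chr16:55966343-55980721, plus strand) overlaps 71.5% of the Rpl24 transcript, RPS10-NUDT3 (chr17:27580780-27635222, minus) 53.6% of that of Rps10, and Gm45713 (chr7:45125922-45136231, minus) 59.3% of that of Rpl13a. The overlapping genes themselves had 0 pairs in every library. Rpl24 kept 9 to 59 pairs per library (median 18), Rps10 21 to 82 (median 40) and Rpl13a 332 to 1255 (median 562). Of the other 80 genes only Rpl19 had an overlap, of 10.7% of its transcript. The counted levels of these 3 genes thus leave out the pairs from the shared exons.

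Copies touched far more of the family than overlap did. By sequence match (at least 80% identity to a member's transcript over at least 50% of the copy) 1829 counted genes annotated as pseudogenes were copies of the members, a median of 16 per member and at most 155, and 81 of the 83 genes had at least 1. Of these, 1031 had no pair in any library and 8 averaged at least 1000 pairs, with Gm9794, the Rpl23 copy shown above, at 4000 pairs per library (2308 to 7297) and Rpl14-ps1 at 2746. Gm9794 held 33.7% of the pairs of the Rpl23 family, where a family is a member with these pseudogenes. Rps27rt, shown above, is annotated as protein-coding and so is not counted in the Rps27 family; it averaged 320 pairs per library, against 8740 for Rps27. In 16 members at least 10% of the family's pairs lay on copies, and in Rps10 and Rpl24, which also lose pairs by overlap, the share was 96.7% and 88.6%. Pseudogenes held a median of 5.06% of family pairs in OB females, 5.09% in OB males, 5.03% in control females and 5.11% in control males, so this share differed little between the groups.

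Pairs lost to copies can also go uncounted, because pairs that map to several places were left out. That loss was not measured itself. As a stand-in, 50-base windows of each transcript were looked up in the transcripts of all other genes. The median member had 51.7% of its windows repeated elsewhere, 43 members had at least 50%, and 3 had none. Rps27 had 98.6%, Rpl9 93.3% and Rpl10 92.1%. The levels of these genes, in the same order, were 830, 632 and 352 CPM per kb, against the median of 324 for the subunit genes. Members with more repeated windows did not have lower counted levels. In groups of 27 members with the fewest, intermediate and most repeated windows the median level was 255.8, 293.3 and 376.6 CPM per kb, and the rank correlation across the 81 tested members, which share the same libraries, was 0.28. By the share of family pairs on pseudogenes, from low to high, the medians fell instead, at 398.3, 358.3 and 262.3 CPM per kb (rank correlation -0.20). Window share and level per kb both depend on transcript length, so these medians cannot show whether copies cost counts. The plot of level against copies shows both measures for each gene.

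**Figure D1:**
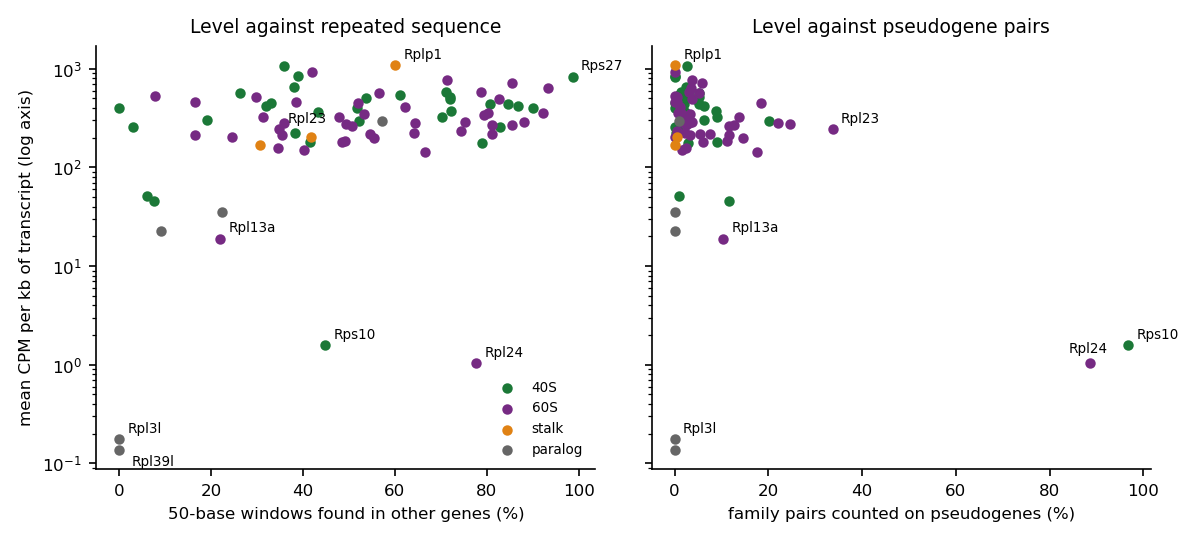
Mean level of each gene over 31 libraries (CPM per kb of transcript, log axis) against the percent of its 50-base windows found in other genes (left) and the percent of its family's pairs counted on pseudogenes (right); each point is a gene, coloured by class, and Rpl10l, with 0 pairs, is not drawn. The lowest levels drawn, those of the paralogs Rpl3l and Rpl39l, belong to genes with no repeated windows, while Rpl24, Rps10 and Rpl13a lie far below the other subunit genes.

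The paralogs ran from abundant to absent. Rpl22l1, which can take the place of its paralog Rpl22 in the ribosome, was as abundant as many subunit genes at 293 ± 90.6 CPM per kb (SD, n = 31). Its level per kb relative to Rpl22 had a median of 1.36 in OB females and 1.51 in control females, and of 1.43 in OB males and 1.57 in control males. The lowest ratio, 0.477, came from the library control female 5, described below. Rps27l, a target of p53, stood at 35.2 and Rpl7l1 at 22.4 CPM per kb. Rpl3l, known as the paralog of Rpl3 of heart and skeletal muscle, had 229 pairs in all (0.175 CPM per kb), Rpl39l, known from the testis, had 105 pairs in 20 libraries, and Rpl10l, also of the testis, had 0 pairs. Rpl39l and Rpl10l fell under the filter on low counts, which left 81 of the 83 genes among the 18743 tested.

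The levels of the members moved together from library to library. After the group means were removed, a single component held 80.2% of the variance of the 81 genes (log2 CPM), against 16.7% for the 18662 other tested genes. Without the 5 libraries described below as in doubt, the first component held 62.6% for the 81 genes. The other genes are far more numerous and of mixed kinds and levels, so the shares of members and other genes are not like for like. The mean over the 81 genes, in log2 CPM, was lowest in OB females at 6.80, with a median of 7.51 and a highest value of 7.66. It was 7.18, 7.50 and 7.77 (lowest, median, highest) in OB males, 7.23, 7.59 and 7.95 in control females, and 7.35, 7.60 and 8.80 in control males. Single libraries set most of the extremes, since control male 6 was the highest of its group for 80 of the 81 genes, OB female 3 the lowest for 76, control female 8 the highest for 76 and OB male 1 the lowest for 75.

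Of the 31 libraries, 5 were in doubt, and results are given with and without them; this choice followed from the data. The libraries labelled control female 7 and control male 7 carried the sex-linked transcripts of the other sex. OB female 3, control female 5 and control male 6 stood apart from the rest by their correlation. OB female 3 and control male 6 had pairs on 18513 and 18734 genes, against 21311 to 22918 in the others. In control female 5 the summed level of 20 genes of hypothalamic neurons was 304 CPM, with Agrp, Fezf1, Nkx2-1, Nr5a1 and Sim1 at 0, and that of 7 genes of olfactory bulb or telencephalon was 1204 CPM; in the remaining 28 libraries these sums were 1457 to 2689 and 7.22 to 23.2 CPM. That sum of hypothalamic genes is against the label hypothalamus for control female 5. In control male 6 the sums of hypothalamic neuron, oligodendrocyte (8 genes), microglia (10 genes) and blood (5 genes) markers were 4428, 10845, 740 and 614 CPM, each above the highest of those 28 libraries (2689, 8726, 586 and 417 CPM). Its sum of 13 markers of neurons in general, 5252 CPM, lay within the range of those 28 libraries (5092 to 6920 CPM). The part of these marker sums in the results below was not tested. In bulk tissue, fewer cells of a type and less RNA per cell cannot be told apart.

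The members' mean also moved with a trend in gene length that ran through each whole library. This trend is the slope of a library's log2 CPM, relative to the mean of all libraries, per doubling of exonic length over all tested genes, so that a negative slope means relatively more pairs on short genes. In each of the 4 groups the library with the lowest mean of the members had the highest slope: 0.203 in OB female 3, 0.0764 in OB male 1, 0.0833 in control female 5 and 0.0351 in control male 1. The library with the highest mean had the lowest slope in OB females (-0.0116), control females (-0.0746) and control males (-0.197, control male 6). In OB males the lowest slope, -0.0466, was that of OB male 8, whose mean was second to that of OB male 3. Within a group the order was not kept by every library: OB male 5, for example, had both a higher mean and a higher slope than OB male 6 and OB male 7.

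**Figure D2:**
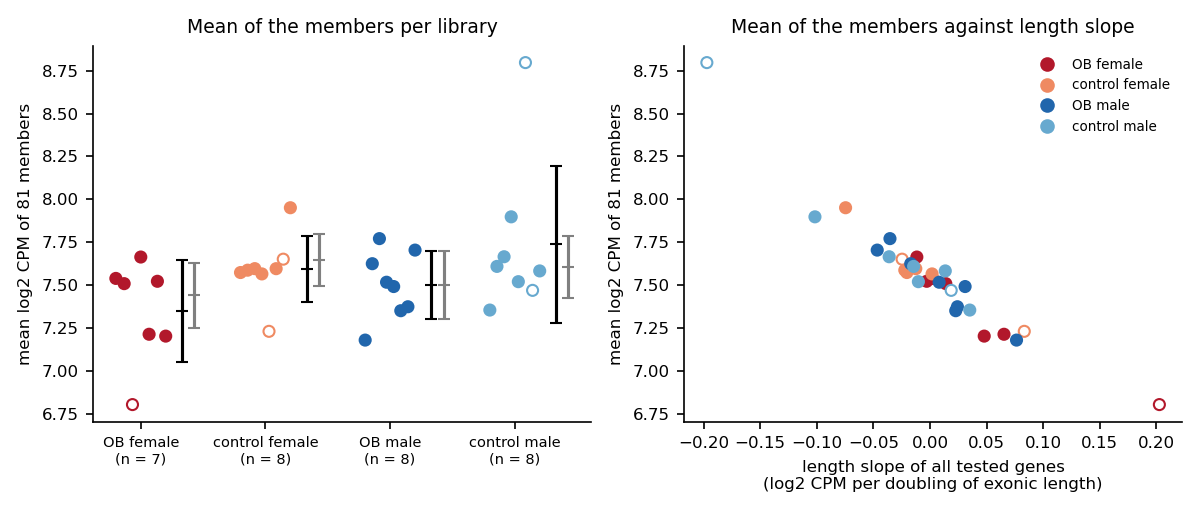
Left: mean log2 CPM of the 81 tested members in each library by group, with open circles for the 5 libraries in doubt, a black bar for mean ± SD of all libraries and a grey bar for mean ± SD without those 5. Right: the same mean against the library's length slope (log2 CPM per doubling of exonic length, all tested genes); control male 6 lies at the lowest slope with a mean of 8.80, and OB female 3 at the highest slope with a mean of 6.80.

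To examine maternal diet in daughters, OB females were compared with control females. Of the 81 genes, 79 had lower fitted levels in OB females and the median log2 difference was -0.24, but no gene passed the threshold of 0.05 on the adjusted p (edgeR's quasi-likelihood test, Benjamini-Hochberg over all genes; 0% of the 18743 genes were called). Lower levels were found for 52.5% of all genes, and the median over all genes was -0.01. At an unadjusted p under 0.05, 4 of the 81 members were lower, a share close to the 4.75% of all genes that were lower at that p. DESeq2 called 0 members and limma voom 0, and the smallest adjusted p of a member with edgeR was 0.558. Leaving out OB female 3, the lowest library of its group, gave a median difference of -0.16 and 0 members at an unadjusted p under 0.05, while voom, which weights libraries by their quality, had 41 members lower at such a p. The share of all genes at such a p is not given here for either setting, so these counts cannot be set against it. The mean of the members in log2 CPM was 7.35 ± 0.297 in OB females and 7.59 ± 0.194 in control females (SD, n = 7 and 8), and without the libraries in doubt 7.44 ± 0.189 in OB females and 7.64 ± 0.151 in control females (SD, n = 6 each). Without them 5 of the 6 OB libraries lay below the lowest control library, at 7.57.

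Without the 5 libraries more members had a small p in females, although the median difference was smaller in size than with all libraries. The median difference was then -0.21, 79 of 81 genes were again lower, and 32 genes had an unadjusted p under 0.05 on the lower side (4.53% of all genes), still with 0 past the adjusted threshold. Every OB female library lay below every control female library for 0 members with all libraries (0.0427% of all genes) and for 3 members without the 5 (0.203% of all genes). By subunit, the median differences with all libraries were -0.23 for the 31 genes of the small subunit, -0.25 for the 43 of the large subunit, -0.27 for the 3 stalk genes and -0.14 for the 4 tested paralogs. The quartiles of the 81 genes were -0.28 and -0.20, and the median of the paralogs lay outside them.

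Markers of other cell types differed between the same female groups, and their part in the members' result was not tested. All 7 markers of meningeal fibroblasts had lower fitted levels in OB females, with a median of -0.48 (-0.30 without the 5 libraries) and summed levels of 41.7 to 81.9 CPM in OB females and 46.1 to 188 CPM in control females. Of 10 microglia markers 9 were lower, with a median of -0.17 (-0.06 without the 5) and sums of 403 to 564 CPM in OB females and 440.0 to 578 CPM in control females. Of 6 pituitary markers 5 were lower, with a median of -0.93 (-1.15 without the 5) and sums of 0.422 to 1217 CPM in OB females and 0 to 6178 CPM in control females. All 5 blood markers were higher, with a median of 0.40 (0.49 without the 5) and sums of 63.9 to 333 CPM in OB females and 63.9 to 229 CPM in control females. Of these lists only the pituitary markers held genes at 0 in a library (Cga, Gh, Pou1f1, Prl and Tshb in both groups, and Lhb in control females). None of these markers passed the adjusted threshold. Of the 20 hypothalamic neuron markers 14 were higher in OB females, with a median of 0.13 (11 and 0.03 without the 5). Of 13 markers of neurons in general 7 were higher, with a median of 0.08 (8 and 0.07 without the 5). No neuron marker passed that threshold either.

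Among small-subunit genes, Rps18 (chr17:33951999-33956001, minus strand; GRCm38), whose protein sits in the head of the small subunit, had 117, 212 and 243 CPM (lowest, median, highest) in OB females and 198, 243 and 290 CPM in control females. The groups overlapped, with OB female 3 lowest and control female 8 highest. Its log2 difference was -0.31 ± 0.15 (SE; edgeR adjusted p = 0.600). Rps6, the substrate of the S6 kinases downstream of mTOR, had 266.6, 364.6 and 420.2 CPM in OB females and 226, 384 and 470 CPM in control females, where the lowest value came from control female 5. Its difference was -0.13 ± 0.15. Rpsa, also known as the laminin receptor, had 525, 751 and 884 CPM in OB females and 515, 811 and 1066 CPM in control females, a difference of -0.20 ± 0.17. Rps27a, which is made as a fusion to ubiquitin, had the most negative difference of the genes without overlap, -0.44 ± 0.24, with 144, 234 and 359 CPM in OB females and 191, 291 and 422 CPM in control females.

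Among large-subunit genes, Rpl15 had the smallest p in females. It had 148, 219 and 243 CPM in OB females and 233.0, 238.3 and 247.5 CPM in control females, so that the control libraries were narrowly grouped and the OB libraries reached below them. The difference was -0.20 ± 0.081 (edgeR adjusted p = 0.558) with all libraries and -0.13 ± 0.066 without the 5. Rpl7 had 261.3, 365.0 and 396.9 CPM in OB females and 385, 407 and 458 CPM in control females (difference -0.28 ± 0.13, edgeR adjusted p = 0.599). For Rpl7 the overlap between the groups was confined to a narrow band near the lowest control library. The 3 members with no overlap once the 5 libraries were left out were Rpl7, Rpl3 and Rps20, named after their values were seen. Rpl3, which reaches towards the peptidyl transferase centre, then had 788, 902 and 944 CPM in OB females and 952, 971 and 1114 CPM in control females, with a difference of -0.19 ± 0.080 (edgeR adjusted p = 0.553).

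Both genes that were not lower in females were poorly counted. Rps10, with 21 to 82 counted pairs per library, had a difference of 0.14 ± 0.28. Its levels were 1.127, 1.497 and 2.403 CPM in OB females and 0.569, 1.23 and 2.92 CPM in control females. When the pairs on its pseudogene copies were added, most of them from Rps10-ps2, the difference was -0.21 ± 0.16. Rpl3l, with 0 to 17 pairs per library, had a difference of 0.23 ± 0.65. Rpl24, the least counted subunit gene, had the most negative difference of all members, -0.59 ± 0.36.

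In sons, OB males were compared with control males. The median log2 difference of the 81 genes was -0.31, and 80 of them were lower, against 49.9% of all genes and a median of 0.00 over all genes. No member passed the adjusted threshold with edgeR (0% of the 18743 genes were called), DESeq2 or limma voom. At an unadjusted p under 0.05, 24 of the 81 members were lower, against 2.54% of all genes. The smallest adjusted p of a member was 0.940, and the count at an unadjusted p under 0.05 was 39 with DESeq2 and 0 with voom. The shares of all genes at such a p with these tools are not given here. Medians by class were -0.32 for the small subunit, -0.30 for the large subunit, -0.29 for the stalk and -0.32 for the 4 tested paralogs.

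The size of the male difference depended on 1 control library. Control male 6 lay above every other control male for 80 of the 81 genes, and without it the median difference was -0.08 with 0 members at an unadjusted p under 0.05. Without the 5 libraries in doubt the median was -0.10, 79 of 81 genes were lower, and 0 members had such a p (1.48% of all genes were lower at that p). The mean of the members was 7.50 ± 0.197 in OB males and 7.74 ± 0.457 in control males (SD, n = 8 each), and without the 5 it was 7.50 ± 0.197 in OB males and 7.61 ± 0.179 in control males (SD, n = 8 and 6). Every OB male library lay below every control male library for 0 members with all libraries (0.00534% of all genes) and for 0 without the 5 (0.0267% of all genes).

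Marker lists differed between the male groups too, and their part in the members' result was not tested. All 6 ependymal markers had lower fitted levels in OB males, with a median of -0.42. Their sums were 79.9 to 149 CPM in OB males and 95.7 to 229 CPM in control males. Without the 5 libraries the median was -0.39 and 5 of the 6 had an unadjusted p under 0.05 (edgeR). Of all genes, 1.48% were then lower at that p. Of 20 markers of hypothalamic neurons 18 were lower, with a median of -0.20 (-0.13 without the 5) and sums of 1457 to 2159.6 CPM in OB males and 1582 to 4428 CPM in control males. The 13 markers of neurons in general went the other way, with 12 higher and a median of 0.09 (10 higher and 0.08 without the 5). Their sums were 5826 to 6920 CPM in OB males and 5092 to 6611 CPM in control males. All 7 meningeal fibroblast markers were lower, with a median of -0.21 (-0.25 without the 5, with 5 of 7 lower) and sums of 42.1 to 58.8 CPM in OB males and 37.5 to 134 CPM in control males. Of 8 endothelial markers 6 were higher, with a median of 0.23 (0.19 without the 5) and sums of 225 to 329.6 CPM in OB males and 213 to 297 CPM in control males. None of these markers was at 0 in a male library or passed the adjusted threshold.

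Single genes of both subunits showed the same dependence. Rpl13 had 208.5, 251.3 and 307.4 CPM in OB males and 235.3, 273.8 and 720.4 CPM in control males, with the highest value from control male 6 and the groups overlapping. Its difference was -0.39 ± 0.17 (edgeR adjusted p = 0.940), and -0.17 ± 0.10 without the 5 libraries. Rps24, whose mutation in humans is known as a cause of Diamond-Blackfan anaemia, had 334, 449 and 538 CPM in OB males and 382, 483 and 1571 CPM in control males, with a difference of -0.47 ± 0.21 and of -0.13 ± 0.11 without the 5.

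The stalk genes and paralogs followed the same course in males. Rplp2 had 116, 155 and 176 CPM in OB males and 139, 157 and 477 CPM in control males, a difference of -0.41 ± 0.19 that was -0.13 ± 0.11 without the 5 libraries. Rplp0, the stalk protein used in many laboratories as a reference gene, had 217, 281 and 316 CPM in OB males and 250.8, 284.7 and 469.8 CPM in control males, a difference of -0.18 ± 0.11. The medians of the 2 groups were close for Rplp2 and Rplp0, and the highest control library was control male 6 for both. Rpl22l1 had 117, 155 and 203 CPM in OB males and 129, 166 and 375 CPM in control males (difference -0.25 ± 0.19). Rpl15, which had the smallest p in females, differed by -0.03 ± 0.078 in males, and Rpl7l1 by -0.01 ± 0.070, the smallest difference of all members.

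The mean of the female and male differences had a median of -0.28 over the 81 genes, of which 80 were lower (52.5% of all genes) and 69 had an unadjusted p under 0.05 on the lower side (6.37% of all genes). No member passed the adjusted threshold with edgeR (0% of all genes called), DESeq2 or limma voom, and the smallest adjusted p was 0.464. Without the 5 libraries the median was -0.16, with 50 members at such a p (4.18% of all genes lower at that p) and 0 past the adjusted threshold. The difference between the sexes in the effect of maternal diet, females minus males, had a median of 0.07, with 64 of 81 genes above 0 and 17 below it, against 49.0% of all genes below it. No member had an unadjusted p under 0.05 on the higher side (1.3% of all genes) or on the lower side (2.33% of all genes) with edgeR. DESeq2 had none either, while voom had 5 on the lower side, with the share of all genes not given here. No member passed the adjusted threshold with edgeR (0% of all genes called), DESeq2 or voom. Without the 5 libraries its median was -0.10, of the opposite sign, with 0 members lower at such a p (1.96% of all genes) and 0 past the threshold. The spread of the 81 differences (SD over genes) was 0.0993 in females and 0.118 in males with all libraries, and without the 5 it was 0.119 in females and 0.0729 in males, as the plot of the differences in both sexes shows.

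**Figure D3:**
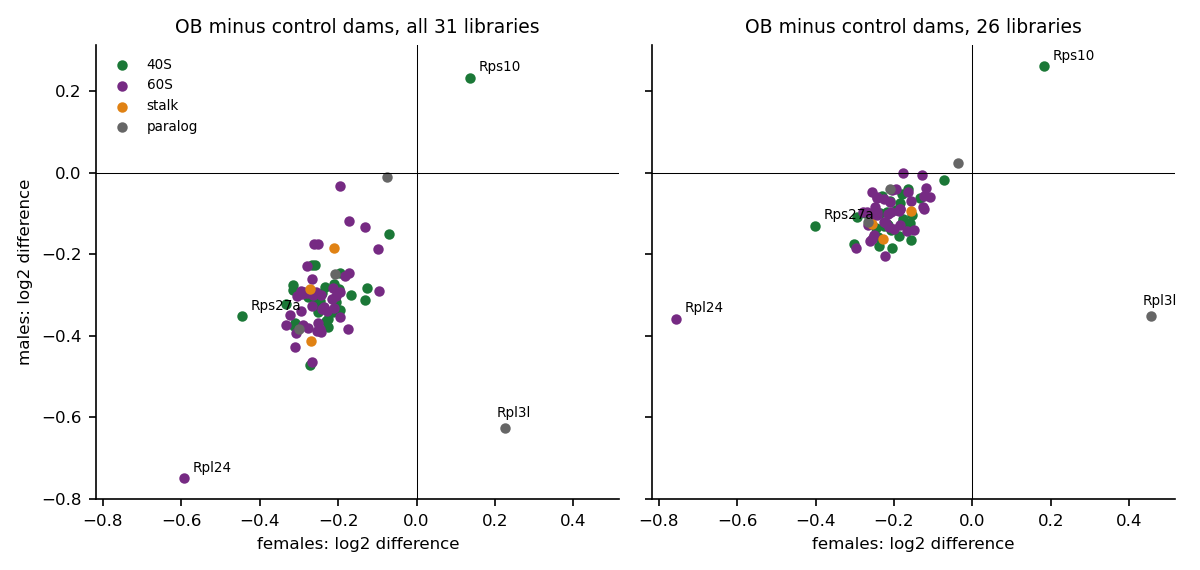
Log2 difference of OB minus control in females (horizontal axis) and in males (vertical axis) for each of the 81 tested members, coloured by class, with all 31 libraries (left) and with the 26 libraries not in doubt (right). Nearly all members lie below 0 on both axes, at a median of -0.24 in females and -0.31 in males on the left, and of -0.21 in females and -0.10 in males on the right; the genes that stand off, Rpl24, Rps10 and Rpl3l, are the least counted.

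Females were also compared with males over both maternal diets. With all libraries 79 of the 81 genes were lower in females (49.9% of all genes), with a median log2 difference of -0.18, 2 members (Rps27a at -0.36 ± 0.16 and Rpl3 at -0.20 ± 0.095) lower at an unadjusted p under 0.05 (1.6% of all genes), and 0 past the adjusted threshold (0.0267% of all genes). Without the 5 libraries the median was -0.02, 0 members were lower at an unadjusted p under 0.05 (1.76% of all genes) and 0 passed the adjusted threshold (0.102% of all genes). The 4 X-linked members had differences of -0.12 ± 0.095 for Rpl10, -0.16 ± 0.10 for Rps4x, -0.22 ± 0.13 for Rpl36a and -0.20 ± 0.13 for Rpl39, and between -0.01 and 0.00 for each of the 4 without the 5 libraries. Rps4x had 264.9, 332.5 and 374.0 CPM in OB females, 281, 335 and 403 CPM in OB males, 315, 360 and 419 CPM in control females and 326, 345 and 900 CPM in control males. The highest value was again that of control male 6.

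The members' differences were then set against gene length, because the trend in length differed between libraries. Among the other tested genes the median difference was higher in each longer class of exonic length: in OB against control females it was -0.19 for genes of up to 500 bases, -0.12 up to 1000, -0.11 up to 2000, -0.04 up to 4000, 0.02 up to 8000 and 0.08 above that. In males the same medians were -0.20, -0.17, -0.12, -0.04, 0.04 and 0.08. The members varied little across these classes. In the 5 length classes that hold members (2, 10, 34, 29 and 6 genes) their medians in females were -0.28, -0.25, -0.24, -0.24 and -0.24, and in males -0.33, -0.32, -0.32, -0.30 and -0.32. They thus lay below the other genes of their length in every class, by the least among the shortest genes. Without the 5 libraries the members' medians were between -0.23 and -0.21 in females and between -0.18 and -0.08 in males. Without those libraries the medians of the other genes ran from -0.15 for the shortest class to 0.08 for the longest in females and from -0.09 to 0.04 in males, so that the gradient was shallower mainly in males, as the plot by length shows.

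**Figure D4:**
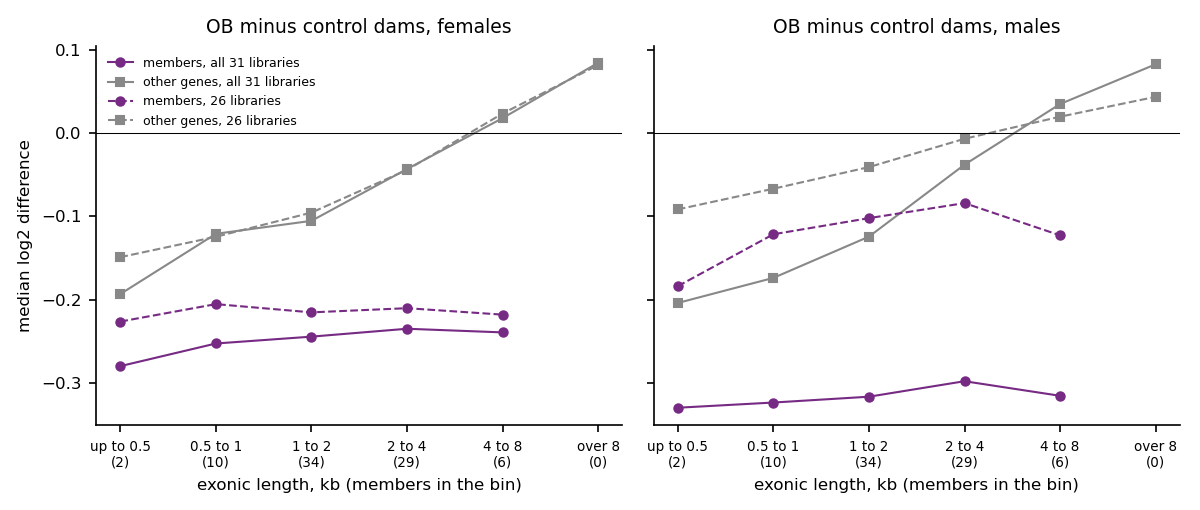
Median log2 difference of OB minus control in females (left) and males (right) by exonic length in kb, for the members (purple; number of members in brackets) and the other tested genes (grey), with all 31 libraries (solid) and the 26 not in doubt (dashed). The other genes climb from -0.19 in females and -0.20 in males to 0.08 in both, while the members stay near -0.24 in females and -0.31 in males at every length with all libraries.

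Exonic length in the table adds up all annotated transcripts, so the members were also ordered by coding length, which runs from 78 to 1260 bases. In groups of 27 members from short to long coding sequence the median difference was -0.27, -0.26 and -0.20 in females and -0.34, -0.32 and -0.28 in males, with rank correlations across the 81 genes of 0.46 in females and 0.43 in males. These correlations without the 5 libraries were 0.39 in females and 0.23 in males. In groups of 27 by exonic length it was -0.26, -0.21 and -0.24 in females and -0.34, -0.30 and -0.30 in males, with rank correlations of 0.12 in females and 0.23 in males. When a smooth trend in length and GC content was removed from each library, the median of the members was -0.18 in females and -0.27 in males, and with the 5 libraries also left out it was -0.16 in females and -0.06 in males. With the trend removed from all libraries the rank correlation with coding length was 0.26 in females and 0.21 in males, while that with exonic length turned negative, at -0.31 in females and -0.40 in males. The medians by exonic length were then -0.17, -0.15 and -0.21 in females and -0.23, -0.26 and -0.33 in males. The genes share libraries and are not independent, so these correlations describe the genes only.

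The differences varied little with repeated windows or with the share of pairs on pseudogenes. The loss of reads itself was not measured. A share of reads lost equally in both groups would leave a gene's difference unchanged, so these values cannot show such a loss. In groups of 27 members from few to many repeated 50-base windows the median difference was -0.25, -0.25 and -0.23 in females and -0.31, -0.32 and -0.31 in males, with rank correlations across genes of 0.05 in females and 0.03 in males. In groups of 27 by the share of family pairs on pseudogenes it was -0.23, -0.27 and -0.25 in females and -0.30, -0.34 and -0.30 in males. With the pairs on pseudogene copies added to each member, the median over the members was -0.25 in females and -0.32 in males. Rpl23, the member with the most pairs on a single copy, then differed by -0.28 ± 0.15 in females and -0.31 ± 0.15 in males, against -0.31 ± 0.16 in females and -0.30 ± 0.15 in males without the copies.

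Other genes of translation were read from lists by their counts and medians. The 6 ribosome genes outside the naming rule, which include Fau, the fusion gene of a small-subunit protein, and Rack1, a signalling scaffold on the small subunit, had 5 lower in females (median -0.21) and 6 lower in males (median -0.37), with 0 past the adjusted threshold. Of 17 genes of elongation factors and other TOP messenger RNAs, 16 were lower in females (median -0.12) and 14 in males (median -0.10). Of 77 tested genes of the mitochondrial ribosome, whose messengers are made in the nucleus and translated in the cytosol, 75 were lower in females (median -0.11) and 73 in males (median -0.15). Of all genes, 52.5% were lower in females and 49.9% in males. Genes outside the members had medians of -0.12 in females and -0.17 in males at exonic lengths of 500 to 1000 bases. At 1000 to 2000 bases these were -0.11 in females and -0.12 in males. The lists were not compared with genes of like length. Ribosome assembly factors (32 genes) had medians of -0.02 in females and -0.00 in males, and 13 genes of TOP control and S6 kinase signalling had 0.01 in females and 0.09 in males. In males the medians without the 5 libraries were nearer to 0 for the first 3 of these lists, at -0.18 for the ribosome genes outside the rule (5 of 6 lower), -0.03 for the TOP messengers (12 of 17 lower) and -0.03 for the mitochondrial ribosome (47 of 77 lower). In females they were then -0.13, -0.13 and -0.10 for the same 3 lists, with 5 of 6, 17 of 17 and 72 of 77 genes lower. Assembly factors had -0.02 in females and 0.02 in males without the 5, and TOP control and S6 kinase genes 0.04 in both. None of these genes passed the adjusted threshold in either sex, with or without the 5 libraries.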

How the data were processed

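Hypothalamic RNA of 31 libraries was analysed from 1 deposited table of counts, whole numbers of read pairs per gene that the authors had not normalized. featureCounts 1.6.2 made them, per the file headers, from pairs mapped at both ends on the reverse strand (setting 2) at a mapping quality of at least 10, with gene models of Ensembl release 94 (GRCm38). The command asks for neither multi-mapping nor multi-overlapping pairs, which the tool then leaves out. The tools named in the submitters' processing notes are TopHat2 2.0.13, FastQC, edgeR and Subread, and the build is mm10. Animals, litters, batches and read length: not given in the sources used here. All count columns were used (0 left out).

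Samples were grouped by the labels. Genes were filtered with filterByExpr (18743 kept), scaled with TMM and tested with edgeR 4.0.16 (R 4.3.3), robust quasi-likelihood fits with 1 mean per group over all libraries, Benjamini-Hochberg adjustment over all genes tested and a threshold of 0.05. Alternatives were DESeq2 1.42.0, limma voom with quality weights (limma 3.58.1), RLE factors, other filters, 2 surrogate variables (sva 3.50.0), a length and GC trend removed per library (splines with 4 degrees of freedom), pseudogene pairs added and libraries left out. log2 CPM used a prior count of 2. Pseudogene copies and repeated windows of 50 (or 100) bases were found in the GENCODE M21 transcripts. The fits were tested on simulated data. Described in single values were the 6 members of smallest p for diet in each sex, any past the threshold, a set of stalk, X-linked, paralog and reference genes, the 3 highest and lowest per kb, those most and least repeated, and those of opposite sign. The text prints a part of them, and the single values of a few genes are not reported here. The members and lists were chosen with earlier results of these data known.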

Additional observations from a re-analysis of the deposited data

Results flagged for a closer look

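Values are listed here that lay far from the rest of their group of 7 or 8 libraries (a gap to the nearest library over Dixon's critical share of the group's range). Chance alone gives such a value in about 1 in 20 groups, and 324 groups of a gene's values were looked at. These groups share the same 31 libraries and the members moved together, so flags in 1 library are not separate events. The rule was applied to log2 CPM, while the values of single genes are printed in CPM. Over all 81 tested members, 64 had such a value in control male 6, 16 in control female 5, 9 in OB female 3 and 4 in control female 8.

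In control male 6 the mean of the members was 8.80 log2 CPM. Values in CPM there were, for the small subunit, 368 for Rps2, 900.4 for Rps4x, 833 for Rps6, 1571 for Rps24, 756 for Rps27 and 1932 for Rpsa. For the large subunit they were 2053 for Rpl3, 818 for Rpl7, 1204 for Rpl9, 521 for Rpl10, 482 for Rpl10a, 720.4 for Rpl13, 50.1 for Rpl13a, 197 for Rpl22, 605 for Rpl23, 2.35 for Rpl24, 376 for Rpl36a, 369 for Rpl39 and 1367 for Rpl41. For the stalk they were 469.8 for Rplp0 and 477 for Rplp2, and for paralogs 375 for Rpl22l1 and 46.1 for Rps27l. All of these were the highest of the control males.

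In control female 5, Rpl3 at 621, Rpl10 at 179, Rpl22l1 at 68.0, Rps6 at 226 and Rpsa at 515 CPM were the lowest of the control females. In control female 8, Rpl13 at 368 and Rps29 at 536 CPM were the highest. In OB female 3, Rpl7l1 at 45.2, Rplp1 at 237 and Rps29 at 167 CPM were the lowest of the OB females.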

How the results depend on the processing

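No paired analysis was possible because the labels give no replicate numbers. No member passed the adjusted threshold under any of the 14 alternatives or with any 1 of the 31 libraries left out. The medians of the members kept their sign in females, in males, in the mean of both sexes and between the sexes under every alternative that could be run for them. In females they ran from -0.27 (without the libraries with 2 numbers in the title) to -0.10 (2 surrogate variables), and in males from -0.35 (without the 2 libraries against their sex label) to -0.02 (2 surrogate variables). The median of the interaction changed sign with libraries left out, surrogate variables and voom (-0.08 and -0.16 for the last 2). With 1 library left out the median ran from -0.30 to -0.16 in females, -0.37 to -0.08 in males, -0.31 to -0.16 in the mean, -0.15 to 0.15 in the interaction and -0.21 to -0.06 between the sexes. The number of genes called between the sexes ran from 2 to 14. The number of members lower at an unadjusted p under 0.05 in females was 0 without OB female 3 and 38 without control male 6. In males it was 0 without control male 6, 3 without OB male 1, and 63 without control male 1. Against 4 in females and 24 in males with all libraries, that number was 41 in females and 0 in males with voom, 12 and 0 in the same order with surrogate variables, 25 and 2 with only the groups compared, 35 and 0 without the 3 libraries that stand apart, 26 and 0 without the 5 in doubt and the length trend, and 4 and 39 with DESeq2. For these settings and for single libraries left out, the share of all genes at such a p is not given here.

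Single genes changed sign in a few cases, mostly at differences near 0. Rps10 went below 0 with pseudogene copies added (-0.21 in females and -0.22 in males). Differences above 0 in males were found with surrogate variables for Rpl10 (0.0153), Rpl13a (0.0345), Rps27a (0.0268), Rpl15 (0.0362), Rpl22 (0.0421), Rpl22l1 (0.0161) and Rpl7l1 (0.0605), and with voom for Rpl10 (0.00514), Rpl13a (0.0112), Rps27a (0.00902), Rpl15 (0.0289), Rpl22 (0.0395) and Rpl7l1 (0.0538). Without the 3 libraries that stand apart they were 0.00490 for Rpl15, 0.00607 for Rpl22 and 0.0327 for Rpl7l1. Without the 5 in doubt and the length trend they were 0.000847 for Rpl15, 0.0161 for Rpl22, 0.0340 for Rpl7l1 and 0.000606 for Rps2, and without the 5 alone 0.0241 for Rpl7l1. With 1 library left out in males, Rpl15 ran from -0.0600 to 0.00845, Rpl22 from -0.223 to 0.00922 and Rpl7l1 from -0.0385 to 0.0361. The cause of these changes was not tested. Depth limits Rpl24, Rps10 and Rpl3l, whose few pairs leave wide intervals.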
